A study of Mus musculus with 4 samples.

Results

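Growth factor signals reach the nucleus through the MAP kinases ERK, JNK and p38, and the same signals switch on genes whose products turn the kinases off again. The genes described here are 10 of these negative regulators: the dual-specificity phosphatases Dusp1, Dusp2, Dusp4, Dusp5, Dusp6, Dusp8 and Dusp10, the Sprouty genes Spry2 and Spry4, and the Sprouty-related gene Spred1. They were taken by name from the array design, which holds 13 probes for them out of 39418 probes for mouse transcripts and 10 of 23106 named genes. The list was put together with the values of these same arrays known, so the members were chosen by measured values and all values below are a description without a test. IMS32 is an immortalized line that arose spontaneously from Schwann cells of adult mice, and it is a single line rather than a set of independent cultures from animals. The cells were kept for 1 h in DMEM with 5% fetal bovine serum, which all groups shared, and the medium held either 5 mM or 15 mM glucose with either 1 mM or 0 mM pyruvate. At 5 mM glucose the group with pyruvate is named [Glc 5 mM/Pyr (+)] and the group without it [Glc 5 mM/Pyr (−)]. At 15 mM glucose they are named [Glc 15 mM/Pyr (+)] and, lacking pyruvate, [Glc 15 mM/Pyr (−)]. Each group was measured on 1 one-colour array, and all 4 arrays lay on 1 slide. Where 4 values follow each other, they stand in this order of the groups. The study asks how Schwann cells respond to pyruvate starvation when glucose is high.

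A dual-specificity phosphatase removes the phosphates from both the threonine and the tyrosine of an active MAP kinase. Dusp1, Dusp2, Dusp4 and Dusp5 are nuclear and are known as immediate-early or delayed-early genes, Dusp6 is cytoplasmic and prefers ERK, and Dusp8 and Dusp10 act mainly on the stress kinases JNK and p38. Sprouty and Spred proteins act further upstream, between receptor tyrosine kinases, Ras and Raf. In Schwann cells, ERK signalling downstream of neuregulin and its ErbB receptors is known for its part in proliferation, dedifferentiation after injury and myelination.

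The regulatory sequence upstream of these genes was read from the RefSeq promoter table of GRCm38.p6, which matched 8 of the 10 members (Dusp4 and Spry4 were not among them). Sequences are shown for Dusp1 and Dusp8, the members with the largest differences without pyruvate at 15 mM glucose, and for Dusp5, the member with the lowest difference there. Each run holds the 250 bases before the transcription start, on the strand of the gene, from chr17:26508473-26508722 (minus strand) for Dusp1, chr7:142095285-142095534 (minus strand) for Dusp8 and chr19:53528895-53529144 (plus strand) for Dusp5. Capitals mark a full cAMP response element (CRE, TGACGTCA), its shorter core (TGACG, which every full element also contains), or a CArG box, the core of the serum response element.
Dusp1: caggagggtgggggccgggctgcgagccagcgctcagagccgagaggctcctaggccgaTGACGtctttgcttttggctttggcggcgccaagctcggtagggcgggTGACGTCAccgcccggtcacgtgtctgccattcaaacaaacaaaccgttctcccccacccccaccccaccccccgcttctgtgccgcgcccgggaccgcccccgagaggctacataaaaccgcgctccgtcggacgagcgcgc
Dusp8: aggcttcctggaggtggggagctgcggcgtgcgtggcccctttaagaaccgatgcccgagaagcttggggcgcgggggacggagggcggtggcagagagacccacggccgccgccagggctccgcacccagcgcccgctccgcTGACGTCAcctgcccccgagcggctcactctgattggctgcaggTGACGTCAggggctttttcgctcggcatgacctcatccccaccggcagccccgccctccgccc
Dusp5: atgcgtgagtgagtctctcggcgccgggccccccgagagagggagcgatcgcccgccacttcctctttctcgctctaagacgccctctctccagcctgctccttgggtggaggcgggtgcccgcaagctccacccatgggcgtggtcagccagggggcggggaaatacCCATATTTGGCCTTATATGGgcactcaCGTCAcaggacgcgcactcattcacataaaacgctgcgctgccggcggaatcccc
Among the 8 matched promoters a full CRE was found on either strand in 2, Dusp1 and Dusp8, while 1.55% of all 32851 promoter windows of the same length hold one. Dusp1 carried it 143 to 136 bases before the start, and Dusp8 carried a pair of copies, from 107 to 100 and from 63 to 56 bases before the start. The short site TGACG was found in Dusp1, Dusp5 and Dusp8, against 17.8% of all windows. Dusp5 carried a pair of abutting CArG boxes, from 82 to 73 and from 72 to 63 bases before the start, and no other matched member had one, against 1.47% of all windows. The AP-1 letters TGANTCA (in 6.75% of windows) and the ETS letters CCGGAA (in 12% of windows) were not in the windows of the 8 members. These matches are a description of the letters in the windows and were not tested against the expression values.

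All 13 probes were well above background on all 4 arrays, and no spot was saturated. Their mean signals lay between the 27.1st and the 94.3rd percentile of the probes. Values were scaled by the 75th percentile of each array, which lay between 1598 and 1789, so that the difference between conditions is the log2 intensity above this percentile on 1 array minus that on the other. The scanner software's own error of such a difference was 0.20 to 0.25 log2 for the members, and spots of 1 probe printed repeatedly on an array had a median SD of 0.071 to 0.077 log2. The first is the software's own estimate for a spot, not a spread measured between spots. For brighter probes it is close to a fixed share of the signal, such as 4068 on 40681 for Dusp6 in [Glc 5 mM/Pyr (+)]. Both describe spots on an array, not cultures, and with 1 array per condition no difference has a replicate check. A probe's intensity also depends on its sequence, so intensities of different probes are not set against each other.

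Dusp1, the immediate-early phosphatase of p38, JNK and ERK, had an intensity of 528 with and 529 without pyruvate at 5 mM glucose, and of 420 with and 1533 without pyruvate at 15 mM glucose. One array stood above the other three, which lay between −1.93 and −1.72 log2 after scaling. Without pyruvate, Dusp1 differed by 0.04 ± 0.20 (scanner error) at 5 mM glucose and by 1.84 ± 0.20 at 15 mM glucose, the latter being 3.58-fold. Higher glucose gave −0.17 with pyruvate and 1.63, or 3.09-fold, without it. The last value and the difference of 1.84 both rest on the single [Glc 15 mM/Pyr (−)] array. Under 10 alternative settings the pyruvate difference at 15 mM glucose ranged from 1.67 to 1.84. The filter and brightest-probe settings could not change it, because Dusp1 has a single probe, well above background on every array. The probe lies at chr17:26642796-26642853 on the minus strand (mm9, as the files give it), and it was the 38th highest of 27783 measured probes in that comparison and the 7th highest of 9196 probes of middle signal, after the probes were split into 3 groups of equal size (dim, middle and bright).

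**Figure D1:**
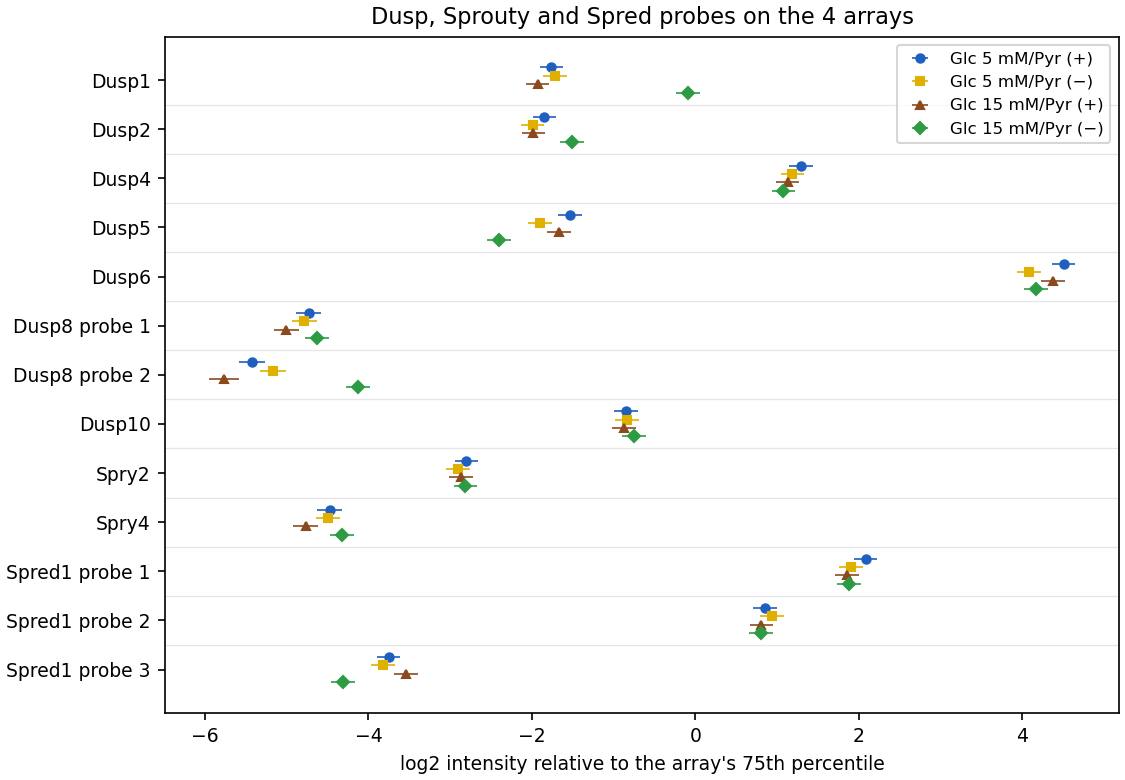
Log2 intensity of each of the 13 probes of the 10 genes relative to the 75th percentile of its array, with 1 marker per condition and horizontal bars for the scanner error of the spot (1 array per condition). Dusp1 stands at −0.09 in [Glc 15 mM/Pyr (−)] and between −1.93 and −1.72 on the other arrays, while Dusp10 and Spry2 show overlapping bars in all conditions.

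The other nuclear phosphatases differed less, and not in 1 direction. Dusp2, a phosphatase of ERK and p38 best known from activated leukocytes, had intensities of 497, 439, 405 and 573. It was highest on the same array as Dusp1, and its pyruvate difference was −0.14 ± 0.20 at 5 mM and 0.47 ± 0.20 at 15 mM glucose. Dusp5, a nuclear phosphatase specific for ERK, had intensities of 619, 466, 504 and 308. It was lower on both arrays without pyruvate than on either array with it, and lowest where Dusp1 was highest. Its pyruvate difference was −0.37 ± 0.20 at 5 mM glucose and −0.74 ± 0.20, or 1.67-fold lower, at 15 mM glucose. Among the probes of middle signal, these values were the 82nd and the 199th lowest of 9196. Under the alternatives the difference of Dusp5 at 15 mM glucose stayed between −0.80 and −0.67, where the filter and brightest-probe settings again could not change it. Dusp4, a nuclear phosphatase of ERK and JNK, had intensities of 4378, 3969, 3499 and 3443, and its 4 differences, from −0.16 to −0.05, were all smaller than the scanner error.

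Dusp6, the cytoplasmic ERK phosphatase, had an intensity of 40681 with and 29595 without pyruvate at 5 mM glucose, and of 33137 with and 29418 without pyruvate at 15 mM glucose. Both arrays without pyruvate lay below both arrays with it. The pyruvate difference was −0.42 ± 0.20 at 5 mM glucose, or 1.34-fold lower, and −0.20 ± 0.20 at 15 mM glucose. Over the 9197 bright probes the SD of that comparison at 5 mM glucose was 0.095 log2, and Dusp6 was the 9th lowest of them, which describes a gene chosen with this value known. Errfi1, an inhibitor of the EGF receptor from the list of other receptor feedback genes, was the 6th lowest with −0.44, and Hbegf, a ligand of that receptor, was the 7th lowest with −0.44. Errfi1 and Hbegf were singled out after their values were seen, so nothing is read from their place beside Dusp6. Errfi1 had intensities of 47078, 33849, 35974 and 30860, and Hbegf had 29910, 21519, 25706 and 19555.

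The stress-kinase phosphatases were Dusp8 and Dusp10. Dusp8 is represented by a pair of dim probes that disagreed. Probe 1 (chr7:149265961-149266020, minus strand, mm9) read 67.3, 63.3, 49.8 and 66.0, and its pyruvate difference was −0.05 ± 0.21 at 5 mM and 0.37 ± 0.22 at 15 mM glucose. Probe 2 (chr7:149267534-149267593, minus strand, mm9) read 41.8, 48.3, 29.3 and 93.4. Its pyruvate difference was 0.25 ± 0.23 at 5 mM and 1.64 ± 0.24, or 3.12-fold, at 15 mM glucose, where it was the 52nd highest of 9197 dim probes. Both probes were lowest in [Glc 15 mM/Pyr (+)], and only probe 2 stood clearly apart in [Glc 15 mM/Pyr (−)]. The mean over both probes at 15 mM glucose was 1.01, which lies at the 2-fold threshold. It fell below this under 8 of 10 alternatives, and the other 2, on the filter, could not change it. It was 0.37 with the brightest probe alone, and also with normexp background correction, which adds an offset of 50 to every intensity. Dusp10 had intensities of 994, 977, 873 and 971, and its 4 differences lay between −0.02 and 0.12.

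The Sprouty and Spred genes showed no difference of 2-fold. Spry2, an inhibitor of receptor tyrosine kinase signalling to Ras, had intensities of 257, 233, 220 and 232, and its differences lay between −0.10 and 0.09, within the scanner error. Spry4 (a dim probe) read 80.4, 77.2, 58.7 and 81.6, and its pyruvate difference was −0.02 ± 0.21 at 5 mM and 0.44 ± 0.22 at 15 mM glucose. With normexp background correction the latter was 0.11. Spred1, which brings the Ras inhibitor neurofibromin to the membrane, has 3 probes that did not move together. Probes 1 and 2 were bright and differed by 0.02 and by less than 0.01 without pyruvate at 15 mM glucose, with intensities of 7586, 6530, 5798 and 6000 for probe 1 and of 3228, 3336, 2799 and 2855 for probe 2. Probe 3 (chr2:116998491-116998550, plus strand, mm9), designed on another transcript and upstream of both, read 133, 123, 137 and 82.2, and its pyruvate difference at 15 mM glucose was −0.77 ± 0.21, or 1.70-fold lower. It was lowest in [Glc 15 mM/Pyr (−)].

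**Figure D2:**
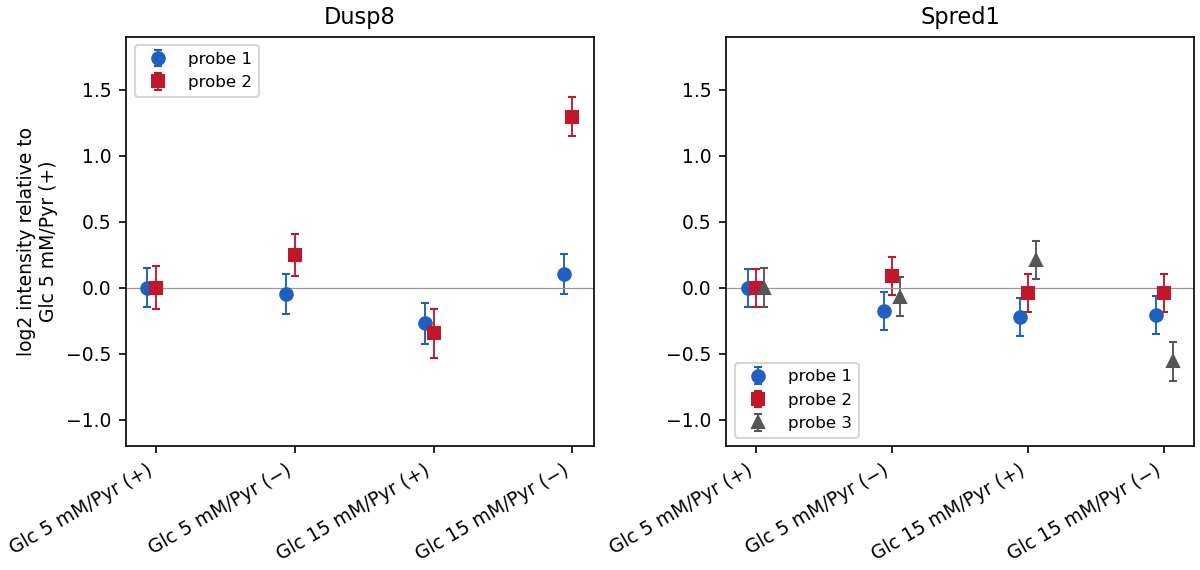
Log2 intensity of the 2 probes of Dusp8 and the 3 probes of Spred1, scaled by the 75th percentile of each array and shown relative to [Glc 5 mM/Pyr (+)], with bars for the scanner error (1 array per condition). Dusp8 probe 2 and Spred1 probe 3 depart in [Glc 15 mM/Pyr (−)] while the other probes of the same genes stay close to their level elsewhere.

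Counted over probes, 0 of the 13 differed by 2-fold without pyruvate at 5 mM glucose, where 0.567% of 29088 measured probes were higher and 0.602% lower. At 15 mM glucose 2 of the 13 were higher, Dusp1 and Dusp8 probe 2, and 0 were lower, where 0.954% of 27783 probes were higher and 1.14% lower. Higher glucose with pyruvate gave 0 of 13 in either direction, where 0.447% of 28217 probes were higher and 0.521% lower. Without pyruvate it gave the same 2 probes higher and 0 lower, where 0.95% of 28208 probes were higher and 1.45% lower. The members were selected on these comparisons, so nothing is read from these counts. The mean of Dusp8 at 15 mM glucose, 1.01, lay just inside the threshold, and the nearest genes outside it were Dusp5 at −0.74 and Dusp2 at 0.47. The median over the 10 genes was −0.08 for pyruvate removal at 5 mM and 0.09 at 15 mM glucose, beside −0.01 and 0.03 over all genes measured. With its sign kept, the pyruvate difference was higher at 15 mM than at 5 mM glucose in 8 of the 10 genes and lower in Dusp5 and Spred1. Each gene had its highest level either in [Glc 5 mM/Pyr (+)] or in [Glc 15 mM/Pyr (−)], with 5 genes in each. For these last counts the shares over all genes were not calculated. The median over all genes was also higher at 15 mM glucose (0.03 against −0.01), so nothing is read from them.

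For higher glucose in the presence of pyruvate the difference was below 0 in all 10 genes, with a median of −0.14 and a range from −0.31 (Dusp8) to −0.02 (Spred1), beside a median of −0.02 over all genes and 45.1% of them above 0. Of the 13 probes, 4 were lower by more than their scanner error, and Spred1 probe 3 was above 0 at 0.21. The number below 0 was 8 of 10 under quantile normalization, cyclic loess and normexp, and 9 of 10 with the median signal of the spots. The pattern was not particular to the members. Of the lists described below, 12 of 12 other Sprouty, Spred and receptor feedback genes were below 0 in that comparison. So were 6 of 6 AU-rich decay genes, 14 of 16 ERK output genes, 25 of 40 cascade genes and 6 of 13 other Dusp genes. Scaling to spike-in controls moved the median of all probes to −0.38 in that comparison, to −0.21 and −0.03 for pyruvate removal at 5 mM and 15 mM glucose, and to −0.19 for higher glucose without pyruvate. All members move by the same amount under this scaling, and all 10 then lay below 0 for pyruvate removal at 5 mM glucose, against 7 of 10 in the main scaling.

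**Figure D3:**
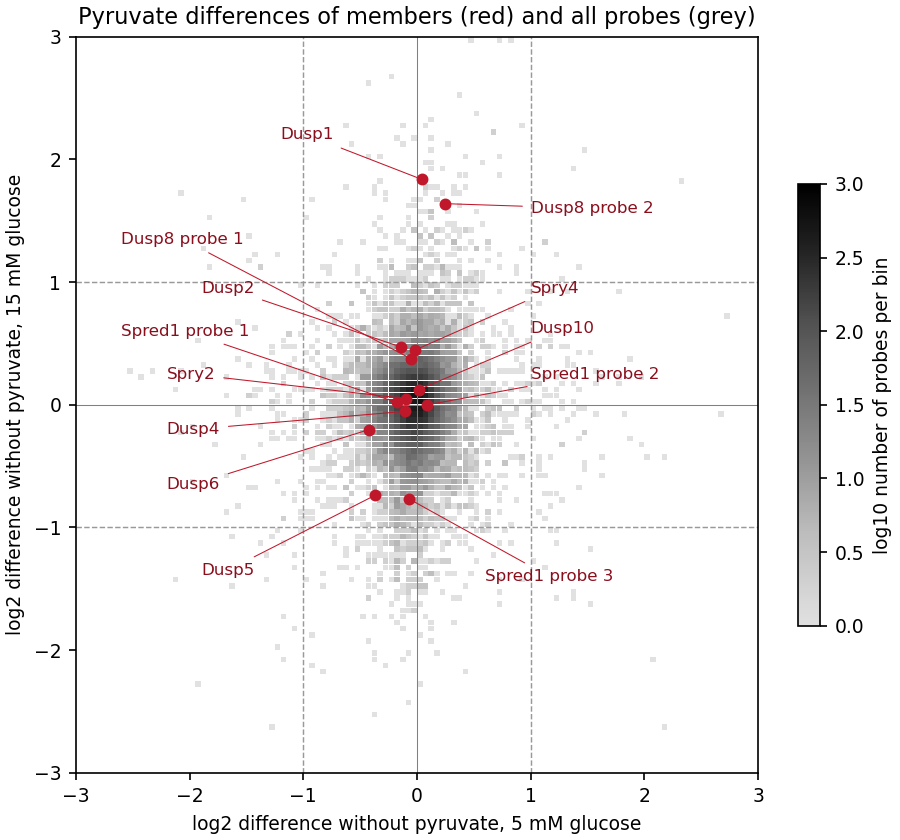
Log2 difference without minus with pyruvate at 5 mM glucose (horizontal) and at 15 mM glucose (vertical) for the 13 member probes in red and for all 27590 probes well above background on the 4 arrays as a grey density, with dashed lines at 2-fold and values beyond the axes drawn at the edge. Dusp1 lies at 0.04 and 1.84, Dusp8 probe 2 at 0.25 and 1.64, and Dusp5 at −0.37 and −0.74.

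Other genes of the pathway were taken from 5 lists. The first runs along the cascade itself. Of 41 listed genes from receptor tyrosine kinases to the MAP kinases and their substrate kinases, 40 were measured, and 0 differed by 2-fold in any of the 4 comparisons. Over all genes measured, 0.483% were 2-fold higher and 0.557% lower without pyruvate at 5 mM glucose, and 0.964% higher and 0.834% lower at 15 mM glucose, so a count of 0 in a list of this size is near the background, here and in the lists that follow. The median of the 40 was −0.02 for pyruvate removal at 5 mM and −0.04 at 15 mM glucose, beside −0.01 and 0.03 over all genes. The largest difference at 15 mM glucose was that of Braf, a kinase that activates MEK, at −0.37, with intensities of 1671, 1589, 1306 and 1078 from its brightest probe.

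Of 17 other Dusp genes, 13 were measured and 0 differed by 2-fold in any comparison. Their median was 0.01 for pyruvate removal at 5 mM and 0.10 at 15 mM glucose, and the largest difference at 15 mM glucose was that of Dusp13 (0.42), whose probes were dim. Of 13 other Sprouty, Spred and receptor feedback genes, 12 were measured and 0 differed by 2-fold. Without pyruvate, 9 of the 12 were below 0 at 5 mM glucose (median −0.12) and 10 of the 12 at 15 mM glucose (median −0.10). Of all genes measured, 45.1% were above 0 at the lower and 57.3% at the higher glucose concentration. The largest difference at 15 mM glucose was −0.36 in Cbl, a ubiquitin ligase for activated receptors, and Spry1, a close relative of Spry2 singled out after its value was seen, differed by 0.35.

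A few of the genes known to be transcribed in response to ERK were high on the same array as Dusp1. All 16 were measured, and Fos, a component of the AP-1 transcription factor, differed most. Fos had intensities of 1071, 783, 623 and 3985, and its pyruvate difference was −0.41 at 5 mM and 2.65 at 15 mM glucose. Ier2, another immediate-early gene, read 372, 308, 309 and 630. Its difference was 1.00 without pyruvate at 15 mM glucose, just under 2-fold, and 1.13 for higher glucose without pyruvate, where it was 0.90 under spike-in scaling. Egr1, an immediate-early zinc finger transcription factor singled out after its values were seen, differed by −0.37 at 5 mM and 0.65 at 15 mM glucose. Without pyruvate at 5 mM glucose, 13 of the 16 genes were below 0, with a median of −0.19 beside −0.01 over all genes. At 15 mM glucose 9 were above 0 and 7 below, with a median of 0.03. Hbegf, at −0.42, was the lowest there. Fos, Ier2, Egr1 and Ier3 (0.59) were thus higher without pyruvate at 15 mM glucose, as Dusp1 was, whereas Dusp5 and Hbegf were lower. The difference of Dusp6 there, −0.20, was within its scanner error. Ier3 was also singled out after its value was seen, and no split of the list is read from these genes.

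Dusp1 and Fos messages carry AU-rich elements that mark them for rapid decay, and 6 genes for proteins that bind such elements were listed. In 5 of the 6 the pyruvate difference was above 0 at 15 mM glucose and in 5 of the 6 it was below 0 at 5 mM glucose, beside 57.3% and 45.1% of all genes above 0 at the respective concentration. The exceptions, Elavl1 (−0.01 at 15 mM glucose) and Hnrnpd (0.01 at 5 mM glucose), lay close to 0 and were singled out after their values were seen. Zfp36, the decay factor tristetraprolin and itself an immediate-early gene, had intensities of 242, 159, 152 and 278. It was low in [Glc 5 mM/Pyr (−)] and also with pyruvate at 15 mM glucose, and the pyruvate difference was −0.56 at 5 mM and 0.84 at 15 mM glucose.

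**Figure D4:**
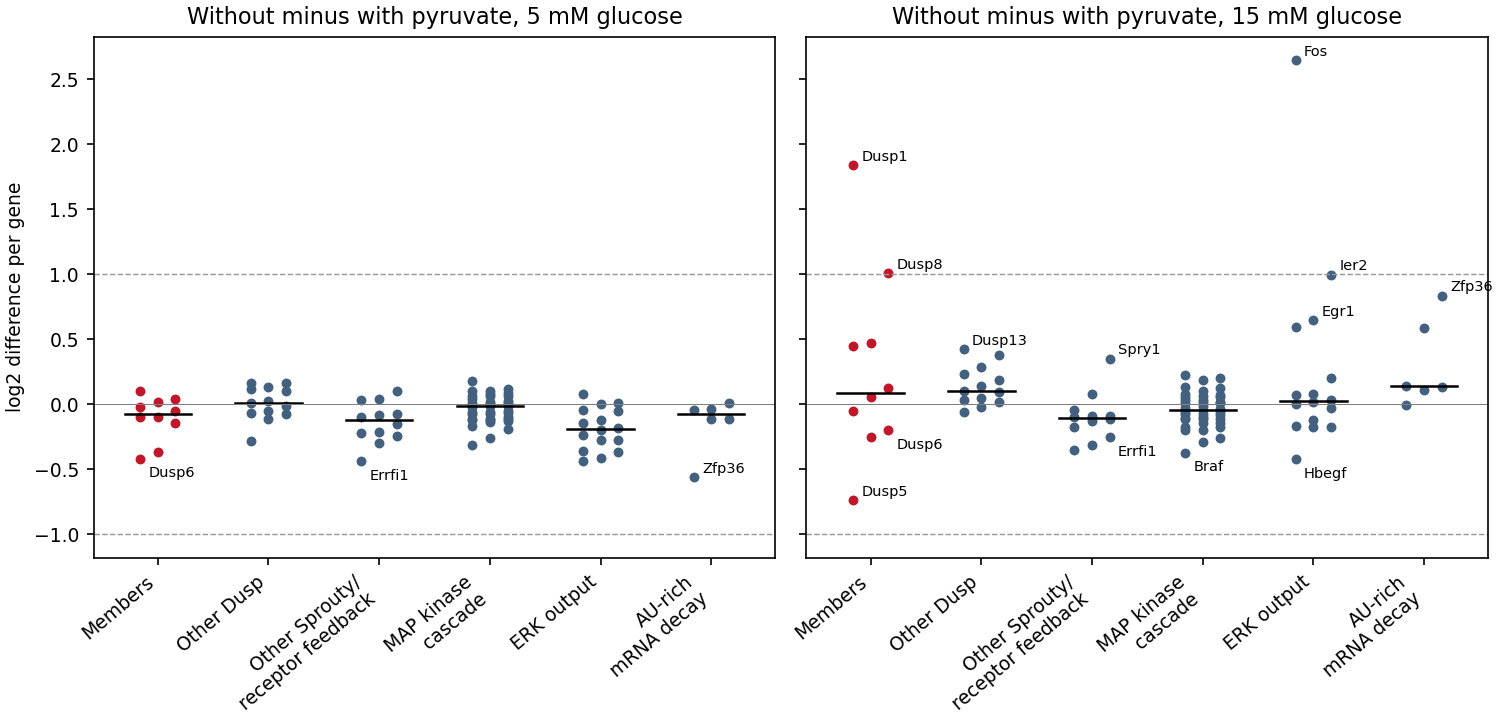
Log2 difference without minus with pyruvate for each gene of the members (red) and of the 5 lists (blue), at 5 mM glucose on the left and at 15 mM glucose on the right, with black bars for the median of each list and dashed lines at 2-fold (1 array per condition). Fos at 2.65, Dusp1 at 1.84 and Dusp8 at 1.01 reach the upper line at 15 mM glucose, and no gene reaches a line at 5 mM glucose.

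The profile of Dusp1 over the 4 arrays was set against 16793 named genes well above background on all arrays, by the Euclidean distance between profiles centred on their own mean. The nearest was Hspa1a, an inducible heat shock protein of the Hsp70 family whose probe may also read its near-identical neighbour Hspa1b, at 0.082 log2 with a pyruvate difference of 0.15 at 5 mM and 1.80 at 15 mM glucose. Then came 1700003G18Rik (0.128), 5730407M17Rik (0.158), Stat4 (0.173), a transcription factor of cytokine signalling, and 3110040M04Rik (0.185). The probes of Hspa1a, 1700003G18Rik, Stat4 and 3110040M04Rik were dim. The distance is computed over 4 arrays of 1 culture each, and any gene that is high on the [Glc 15 mM/Pyr (−)] array alone by a like amount is near. Among the members, Dusp8 was the nearest to Dusp1, at rank 172 with a distance of 0.83, followed by Dusp2 at rank 613 and Spry4 at rank 1477, and Dusp5 was the farthest, at rank 16471 with 2.12.

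Dim probes spread more widely than bright ones, and members lie in all of the 3 signal groups. At 15 mM glucose without pyruvate, 2.29% of the dim probes were 2-fold higher, against 0.326% of the middle group, which holds Dusp1, and 0.087% of the bright group, which holds Dusp6. The 10 Schwann cell markers looked at, Sox10, S100b and Ngfr among them, were well above background on every array, although Gfap and Erbb3 were among the dim ones. The summed intensity of these markers ranged from 96939 to 114925, lowest in [Glc 15 mM/Pyr (−)]. Of the markers of other cells, 4 of 5 for fibroblasts, 5 of 5 for macrophages, 3 of 4 for neurons and 2 of 3 for endothelium were also well above background on all arrays, and Cdh5 was on none. Summed intensities over the arrays ranged from 87552 to 93695 for fibroblast, 10825 to 15831 for macrophage, 7638 to 11711 for neuron and 4230 to 5704 for endothelial markers. Their part in the differences of the members was not tested. In bulk RNA, fewer cells with a transcript and less of it per cell cannot be told apart.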

How the data were processed

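Cy3-labelled cRNA from 1 sample of IMS32 cells per condition was read on 1 Agilent mouse array each. The authors deposited the output of Feature Extraction 11.5.1.1, from which the background-corrected intensity, its error and the flag for signal well above background were used. The deposited value table holds a ratio of this intensity to 1 constant per array, and served as an alternative. The authors used GeneSpring GX, and its settings are not given in the sources used here.

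Spots flagged as controls or outliers were dropped, spots of 1 probe were averaged, and the 75th percentile of each array was subtracted on the log2 scale. A difference counts as measured where the probe is well above background on both arrays, and a gene takes the mean of its measured probes. The threshold was 2-fold. With 1 array per condition no statistical test between conditions was made. The members, gene lists and motifs were chosen with earlier results of these data known. Named genes are the members, list genes past 2-fold or otherwise with the largest difference at 15 mM glucose, and the 5 nearest to Dusp1. Other list genes are marked where they are named, and the cell type markers stand apart. Alternatives to scaling, background, filter, probe choice and threshold numbered 11. limma 3.58.1 (R 4.3.3) and Python 3.11.15 were used, and the script that counts fold differences was checked on simulated arrays, which says nothing about the differences measured. Probe positions are in mm9. One marker gene is not reported here by name.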

Additional observations from a re-analysis of the deposited data

Results flagged for a closer look

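At 5 mM glucose Dusp2 differed without pyruvate by −0.14 ± 0.20 (scanner error), which lies within that error. At 15 mM glucose it differed by 0.47 ± 0.20, and the difference between both was 0.61 ± 0.29 log2. Dusp2 was flagged because the signs were opposite and both values passed 0.102 log2, taken from the spread between spots of 1 probe. Each value comes from a single pair of arrays, and the difference between the glucose concentrations was not tested.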

How the results depend on the processing

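Of 568 values recalculated under 11 alternatives, 492 counted as unchanged and 76 as moved. A difference was unchanged if it moved by no more than 0.102 log2, taken from the spread between spots of 1 probe. A count of members or probes was unchanged if it stayed within 1.5-fold of the main one. Reversal was looked for only where a difference was past 2-fold in the main setting, which among single members holds for Dusp1 and Dusp8. It was seen in 0 values. Signs did change for smaller differences, the largest of them that of Dusp8 for higher glucose with pyruvate, which was −0.31 and became 0.06 with normexp. Of the 400 recalculated differences of single members, 351 were unchanged and 49 moved. All member probes were well above background on every array, so the filter settings could not move them. Taking the brightest probe could not move genes with 1 probe. Such cases are included among the 351. The count of members 2-fold higher without pyruvate at 15 mM glucose was 2, and 1 under 8 alternatives: a 75th percentile taken from probes detected on every array, normexp, spike-in scaling, quantile normalization, cyclic loess, the deposited ratio, the median signal and the brightest probe. The mean of Dusp8 lies at the threshold, and the gene lost under each was Dusp8. Spike-in scaling moved the median of the members to −0.27 for pyruvate removal at 5 mM glucose, to −0.50 for higher glucose in the presence of pyruvate and to −0.14 in its absence. At a threshold of 1.5-fold, pyruvate removal at 15 mM glucose gave 1 lower member, Dusp5 (−0.74). The 2 higher ones in that comparison were again Dusp1 (1.84) and Dusp8 (1.01). More glucose in the absence of pyruvate gave 2 higher members, Dusp1 (1.63) and Dusp8 (0.60). No share of all genes past 1.5-fold in each direction is given beside these counts, so nothing is read from them.

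Probes past 2-fold over the whole array numbered 340 and 583 for pyruvate removal at 5 mM and 15 mM glucose, while higher glucose gave 273 with pyruvate and 678 when it was missing. In the same order they numbered 10, 100, 8 and 112 with normexp, 1650, 2545, 1621 and 2761 with no filter on dim probes, and 930, 1818, 880 and 2051 at 1.5-fold. Spike-in scaling gave 519 for glucose with pyruvate, and the median signal gave 215 for pyruvate removal at 5 mM glucose. The share of higher calls also moved with scaling: for glucose with pyruvate 126 probes were higher and 147 lower, against 171 and 108 under quantile normalization and 66 and 453 under spike-in scaling. For glucose without pyruvate 268 were higher and 410 lower, against 163 and 723 under spike-in scaling. Causes were not tested. No paired analysis was possible because each condition has 1 array. The 4 arrays limit the precision, and dim probes such as those of Dusp8 and Spry4 depend most on the normexp setting. Its offset of 50 by itself shrinks log2 differences of dim probes, and the offset and the background correction were not separated.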
